A study of Mus musculus with 8 samples.

Results

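The genes described here are 54 named genes of the cell cycle and mitosis, read from m6ARIP-seq peak lists of mouse liver with and without hepatocyte Wtap. They form a list of gene names set with earlier results of these data known, and the rule itself uses no measured value. At least 1 peak in either genotype's list was found for 32 of the 54, among 11558 genes with a peak in all. m6ARIP-seq pulls down fragmented poly(A)+ RNA with an antibody to N6-methyladenosine (m6A) and sequences it (IP) beside the same RNA before the pull-down (input), so that a peak is a stretch of exons where IP reads exceed input reads. Livers came from male C57BL/6 mice (C57BL/6J in the methods of the study) on normal chow at 8 weeks of age. Control Wtap flox/flox mice carry 2 floxed and intact Wtap alleles. Wtap-HKO mice carry the same alleles together with an Alb-Cre transgene, whose albumin promoter drives Cre in hepatocytes, so the other cells of the liver keep Wtap. The 8 libraries comprised 2 of IP and 2 of input for either genotype, and every replicate held pooled RNA of 5 mice.

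WTAP is a subunit of the complex that writes m6A on mRNA, where it holds the methyltransferase pair METTL3 and METTL14 in nuclear speckles. m6A is found most often near stop codons and in 3′ UTRs, and it affects the splicing, translation and decay of the mRNA that carries it. Most hepatocytes of an adult liver rest outside the cell cycle. When hepatocytes divide, D-type cyclins with CDK4 and CDK6 phosphorylate the RB proteins, E2F factors are released and turn on the genes of DNA replication, and FOXM1 and the MYB-MuvB complex later turn on the genes of mitosis.

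Each list holds its genotype's replicates already merged. Hence no value below has an SD or can be checked per replicate, and whether a difference between the lists exceeds the variation among replicates could not be tested. The sources used here do not state whether a listed peak had to be enriched in every replicate. The lists hold no reads and no expression levels, so the depth of the libraries and the abundance of each mRNA are unknown. A gene without a peak can be unmethylated, too scarce to be called or, if that was required, not enriched in every replicate, and these cannot be told apart. The Wtap flox/flox list holds 15635 peaks in 9020 genes and the Wtap-HKO list holds 19185 peaks in 10634 genes. The deleted gene, Wtap, has 3 peaks in each list, with a fold enrichment (IP over input) of 8.06 to 20.7 in Wtap flox/flox and of 4.47 to 20.6 in Wtap-HKO, and these peaks say nothing of how much Wtap mRNA was left.

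The cell cycle genes had more peaks in the Wtap-HKO list than in the Wtap flox/flox list. In Wtap flox/flox, 17 of them held 23 peaks, and in Wtap-HKO 31 of them held 54 peaks. Of the 32 genes with a peak, 16 had peaks in both lists (50%), 15 only in Wtap-HKO (46.9%), and 1 only in Wtap flox/flox (3.12%). Over all 11558 genes with a peak, 70.0% had peaks in both lists, 22.0% only in Wtap-HKO and 7.99% only in Wtap flox/flox. The share of the cell cycle genes with peaks only in Wtap-HKO was therefore above the background share, and no test stands behind this difference. The groups of genes split unevenly. All 10 genes with a peak among the 18 genes of the G1/S cyclins, their kinases, the RB proteins, the E2F factors, Foxm1 and Mybl2 had peaks in both lists by gene name. For Cdk4, however, the control peaks lie outside the gene, over Tspan31, and by position or at a fold enrichment of at least 2 Cdk4 had a peak only in Wtap-HKO. By contrast, none of the 20 genes of the S, G2 and M cyclins, the mitotic kinases, the spindle checkpoint, the spindle and the kinetochore had a peak in Wtap flox/flox, while 8 of them had peaks in Wtap-HKO, 14 in number, and 12 had none in either list.

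**Figure D1:**
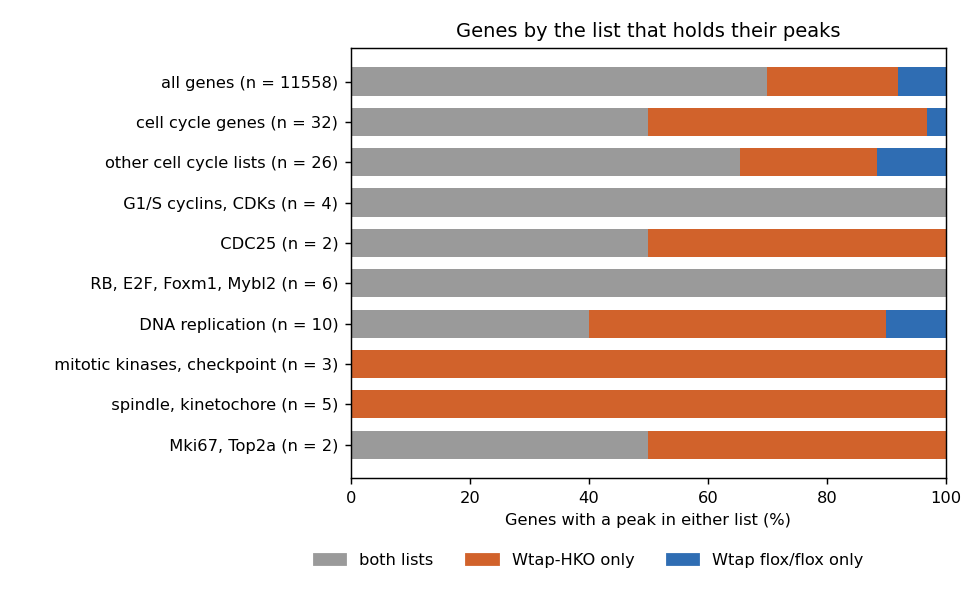
Horizontal bars give the percentage of genes with a peak in either list (n on each label) that had peaks in both lists (grey), only in Wtap-HKO (orange) or only in Wtap flox/flox (blue). The bar of the 32 cell cycle genes is 46.9% orange beside 22.0% for all genes; the bars of the mitotic kinases and of the spindle genes are wholly orange and those of the G1/S and the RB and E2F genes wholly grey, which for Cdk4 rests on control peaks over Tspan31.

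Counted as peaks, 36 of the 54 Wtap-HKO peaks (66.7%) shared no exonic base with a Wtap flox/flox peak on the same strand, whereas 35.3% of all Wtap-HKO peaks did not. These 36 peaks comprised the 21 peaks of the 15 genes with peaks only in Wtap-HKO, 6 of them in Cenpf, and 15 peaks of 6 genes with peaks in both lists. The latter were Mki67 with 9, Rbl2 with 2, and Ccnd2, Cdc25a, Cdk4 and Tk1 with 1 each. Peaks of the same gene are counted singly here, so Mki67 and Cenpf weigh heavily in the 66.7%. In the other direction, 5 of the 23 Wtap flox/flox peaks (21.7%) met no Wtap-HKO peak, close to the 19.9% of all Wtap flox/flox peaks. In fold enrichment, the cell cycle peaks lay in the range of peaks at large. In Wtap-HKO their median fold enrichment was 6.8 (quartiles 4.14 and 12.1) and that of all peaks 5.93 (3.64 and 11.2). In Wtap flox/flox the medians were 4.61 (3.66 and 9.71) and 5.51 (3.39 and 9.70).

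**Figure D2:**
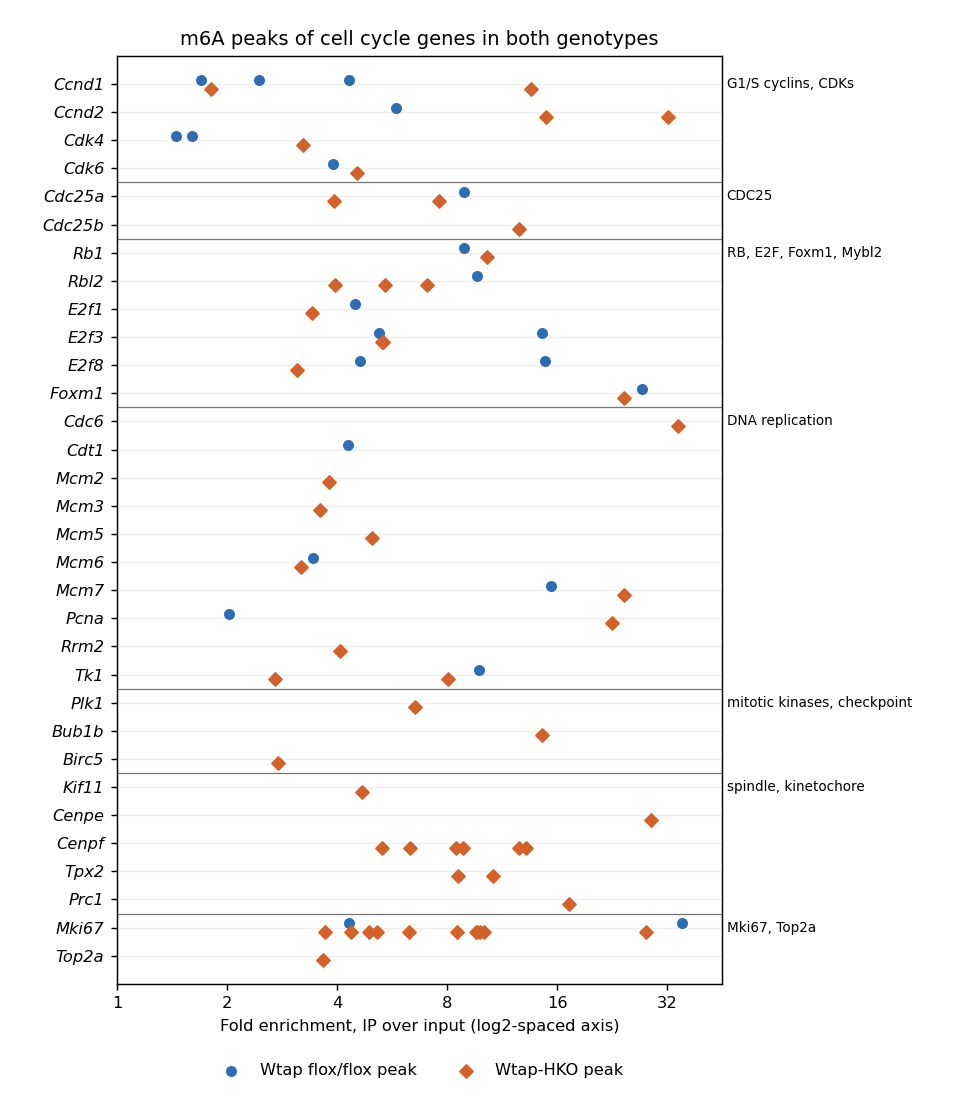
Each point is 1 peak of a cell cycle gene, placed by its fold enrichment (IP over input, log2-spaced axis), with Wtap flox/flox peaks as blue circles and Wtap-HKO peaks as orange diamonds, and with genes in the order of their roles. Rows from Plk1 to Prc1 hold orange points only, and the 11 orange points of Mki67 stand beside 2 blue ones.

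Sequence is shown for the 4 genes where a peak reached bases 21 to 50 counted from an annotated RefSeq start, because these show which letters the peaks at transcript starts cover. The stretches come from RefSeq promoter sequences on GRCm38.p6, read 5′ to 3′ on the strand of the gene. Capitals mark bases inside a peak, which is the Wtap-HKO peak for Pcna, Prc1 and Rbl2 and the differential peak for Cdk4. A start was listed for 43 of the 54 genes.
Pcna, chr2:132253131-132253160, minus strand: GAGGGTTGGTAGTTGTCGCTGTAGGCCTTC
Prc1, chr7:80294496-80294525, plus strand: gaagtctgctgcggCTGGTTACCGTTCTCC
Rbl2, chr8:91070077-91070106, plus strand: tagcaggacaGGCTGCTGACGGGCCGGCGC
Cdk4, chr10:127063555-127063584, plus strand: ccccccgggTTTCCGCGCGCCTCTCTGGCA
The letters GGAC, which make the core of the m6A consensus in DNA letters, were searched on the transcribed strand of these windows. They stood in the Rbl2 window alone, at bases 26 to 29 from the start, before the first base of the peak. Of 32851 such windows of all annotated starts, 11.7% held GGAC and 3.36% held GGACT. None of the 4 windows held GGACT.

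The G1/S cyclins and their kinases drive the step from G1 into S phase. Of these 8 genes, 4 had peaks, with 7 peaks in the control list and 6 in the Wtap-HKO list. Ccnd3, Ccne1, Ccne2 and Cdk2 had none. A value given for a peak is its fold enrichment unless another quantity is named. Ccnd1 (ENSMUSG00000070348), which encodes the D-type cyclin best known in liver regeneration, had 3 peaks in Wtap flox/flox. Its peak at the 5′ end was enriched 4.3-fold in Wtap flox/flox (chr7:144939625-144939865) and 13.6-fold in Wtap-HKO (chr7:144939595-144939895), a log2 ratio of 1.66. A Ccnd1 peak further downstream was enriched 2.45-fold in Wtap flox/flox but 1.81-fold in Wtap-HKO, a log2 ratio of -0.44. The third Ccnd1 peak, the one closest to the 3′ end, had a fold enrichment of 1.7 and was in the Wtap flox/flox list alone. Within the same gene, the 5′ peak thus stood higher in Wtap-HKO and the downstream peaks stood lower or were not called.

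Ccnd2, another D-type cyclin, had 1 peak in Wtap flox/flox with a fold enrichment of 5.78. The matching Wtap-HKO peak had a fold enrichment of 14.9, a log2 ratio of 1.37. A further Ccnd2 peak near the 5′ end (chr6:127150882-127151032), with a fold enrichment of 32.2, was in the Wtap-HKO list alone, and it also lies over the lncRNA gene 9330179D12Rik. Whether reads were counted by strand is not stated, so at this and the other sites below that lie over a second gene, the reads of the genes cannot be told apart. Cdk6 differed little, with 3.89-fold enrichment in the control list and 4.52-fold in the Wtap-HKO list.

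Cdk4, the kinase partner of the D-type cyclins, had its peaks at different positions in the lists. Its Wtap-HKO peak (chr10:127063594-127063880, fold enrichment 3.22) lies near the 5′ end. Both peaks that carry the name Cdk4 in Wtap flox/flox (chr10:127067324-127067443 and chr10:127067503-127067860, fold enrichments 1.45 and 1.6) begin beyond the end of the RefSeq Cdk4 gene at 127067288, and they lie over Tspan31, which runs from 127067287 to 127070972 on the same chromosome. Counted by position, Cdk4 therefore has a peak only in Wtap-HKO, and the genes with peaks only in that list become 16.

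The cyclins of S, G2 and M phase and their kinase carry a cell through DNA synthesis to division. Ccna2, Ccnb1, Ccnb2, Ccnf and Cdk1 had no peak in either list. Among the CDC25 phosphatases, which remove inhibitory phosphates from CDKs, Cdc25c had no peak. Cdc25a had a peak toward its 3′ end that stood at 8.88 in Wtap flox/flox and at 3.91 in Wtap-HKO, a log2 ratio of -1.18. Cdc25a also had a peak near its 5′ end (chr9:109875938-109876118, fold enrichment 7.59) that only the Wtap-HKO list holds. Cdc25b had its single peak in Wtap-HKO alone (chr2:131187038-131187158), also near the 5′ end, with a fold enrichment of 12.6.

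The RB proteins hold E2F factors in check, and E2F and FOXM1 turn on the genes of S phase and mitosis. Here 6 of 10 genes had peaks, all in both lists, with 8 peaks in the control list and 9 in the Wtap-HKO list. Rbl1, E2f2, E2f7 and Mybl2 had none. The Rb1 peak stood at 8.88 in Wtap flox/flox and at 10.3 in Wtap-HKO, and it also lies over the gene Lpar6. Rbl2, which encodes p130, the RB protein of resting cells, had 1 peak in Wtap flox/flox with a fold enrichment of 9.66 and a matching peak of 7.05 in Wtap-HKO. Rbl2 had 2 further peaks in Wtap-HKO, 1 at the annotated start (chr8:91070087-91070297, fold enrichment 5.42) and 1 of 3.95 that, like the shared peak, also lies over Aktip.

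E2f1, an activating E2F, stood at 4.47 in Wtap flox/flox and at 3.41 in Wtap-HKO. Its relative E2f3 had a pair of peaks near the 3′ end in each list. One E2f3 peak stood at 14.5 in Wtap flox/flox and at 5.32 in Wtap-HKO, a log2 ratio of -1.45, while its neighbour stood at 5.19 and 5.35. E2f8, a repressor among the E2F factors, had a peak of 14.8 in Wtap flox/flox (chr7:48880752-48881021) with no counterpart in Wtap-HKO, and another that stood at 4.61 in Wtap flox/flox and at 3.1 in Wtap-HKO. Foxm1, which turns on genes of G2 and mitosis, was strongly enriched in both lists, with fold enrichments of 27.2 and 24.4.

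Genes of replication licensing and DNA synthesis load the helicase at origins and supply the clamp and the nucleotides for copying DNA. Of 11 genes, 4 had peaks in both lists, 5 only in Wtap-HKO (5 of the 10 with a peak, beside 22.0% of all genes) and 1 only in Wtap flox/flox, with 5 peaks in the control list and 10 in the Wtap-HKO list. Cdt1 (chr8:122572807-122572986, fold enrichment 4.27), which loads the MCM helicase at origins, had its peak in Wtap flox/flox alone. Cdc6, its partner in loading, had a peak in Wtap-HKO alone (chr11:98921520-98921789) with a fold enrichment of 34.3, the highest of any cell cycle peak in that list. Of the 6 subunits of the MCM2-7 helicase, 5 had a peak in Wtap-HKO and 2 in Wtap flox/flox. The Mcm2, Mcm3 and Mcm5 peaks, with fold enrichments of 3.8, 3.59 and 4.97, were in the Wtap-HKO list alone, and Mcm4 had no peak. The Mcm6 peak stood at 3.43 in Wtap flox/flox and at 3.18 in Wtap-HKO. Mcm7 stood higher, at 15.4 and 24.4.

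Pcna (ENSMUSG00000027342), the sliding clamp of DNA polymerase, had the highest log2 ratio of Wtap-HKO over Wtap flox/flox among the matched cell cycle peaks. Its single peak lies at the annotated start, over the Pcna stretch printed above, whose 30 bases fall inside the peak of both genotypes. The fold enrichment was 2.02 in Wtap flox/flox (chr2:132253074-132253194) and 22.6 in Wtap-HKO (chr2:132252984-132253254), a log2 ratio of 3.48. These values come from peaks of unlike length, 121 and 271 nt. Over a common stretch, the log2 fold change of the differential list given below was smaller, at 1.35. Ranked within its list, the peak was at percentile 5.36 in Wtap flox/flox and at percentile 89.3 in Wtap-HKO. Rrm2, a subunit of ribonucleotide reductase, had a peak of 4.07 in Wtap-HKO alone. Tk1, the S-phase thymidine kinase, had a 3′ peak of 9.77 in Wtap flox/flox and of 8.03 in Wtap-HKO. A further Tk1 peak near the 5′ end, of 2.71 in Wtap-HKO alone, also lies over Afmid.

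Of the 7 genes of the mitotic kinases and the spindle checkpoint, 3 had a peak. All 3 had it only in Wtap-HKO, beside 22.0% of all genes with a peak. Plk1, the kinase that drives entry into mitosis and spindle assembly, had a peak near its 5′ end (chr7:122159528-122159617) with a fold enrichment of 6.55. Bub1b, which encodes the checkpoint protein BUBR1, had a peak of 14.5. Birc5, which encodes survivin of the chromosomal passenger complex, had a peak of 2.76, the lowest among the genes with peaks only in Wtap-HKO. Aurka, Aurkb, Bub1 and Cdc20 had no peak in either list.

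The genes of the spindle, kinetochore and cytokinesis held 11 peaks in Wtap-HKO, in 5 of 8 genes, and 0 in Wtap flox/flox. Over all genes with a peak, 22.0% had peaks only in Wtap-HKO. Kif11, the motor that pushes spindle poles apart, had a peak of 4.67. Cenpe, a kinetochore motor, had a peak of 28.9 at the very 3′ end of the gene (chr3:135273372-135273521). Tpx2, which activates Aurora A on the spindle, had a peak of 8.58 at the 5′ end and of 10.7 toward the 3′ end. Prc1, which bundles microtubules of the central spindle, had a peak of 17.2 that begins within the stretch printed above (chr7:80294510-80300338) and also lies over the gene Rccd1. Its false discovery rate, 3.0e-04, was the weakest among the genes with peaks only in Wtap-HKO. Kif20a, Ect2 and Anln had none.

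Cenpf, which encodes a large kinetochore and nuclear matrix protein, had 6 peaks in Wtap-HKO, with fold enrichments of 5.29 to 13.1. Of these, 4 stood side by side within 1919 nt (chr1:189652421-189654339), with fold enrichments of 6.32 to 13.1. Most genes with peaks only in Wtap-HKO had a single peak, namely 77.5% of all such genes and 13 of the 15 cell cycle genes, and only 4 of the 2538 had 6 or more.

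Mki67 (ENSMUSG00000031004), the source of the Ki-67 antigen of dividing cells, had a surplus of 9 peaks in Wtap-HKO. Its 2 peaks in Wtap flox/flox covered 480 exonic nt, and its 11 peaks in Wtap-HKO covered 3755 exonic nt. No other gene had a larger surplus in Wtap-HKO, and 1 had an equal one. In Wtap-HKO, 8 of the peaks stood in a row within 6348 nt (chr7:135694483-135700830), each unbroken by an intron, with fold enrichments of 3.71 to 10.1. The Wtap flox/flox peak that overlaps the 3′ end of this row had the highest fold enrichment of any cell cycle peak, 35.1 with a false discovery rate of 1.4e-09, whereas the Wtap-HKO peak there was wider and stood at 6.28 with a false discovery rate of 1.3e-41. Thus the log2 ratio at this site was -2.48 while the false discovery rate was smaller in Wtap-HKO, and the site is not in the differential list. The other matched Mki67 peak, at the 3′ end of the gene, stood at 4.31 in Wtap flox/flox and at 9.68 in Wtap-HKO. Top2a, the topoisomerase that untangles chromosomes before they part, had 1 peak of 3.65 at its 3′ end in Wtap-HKO alone.

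**Figure D3:**
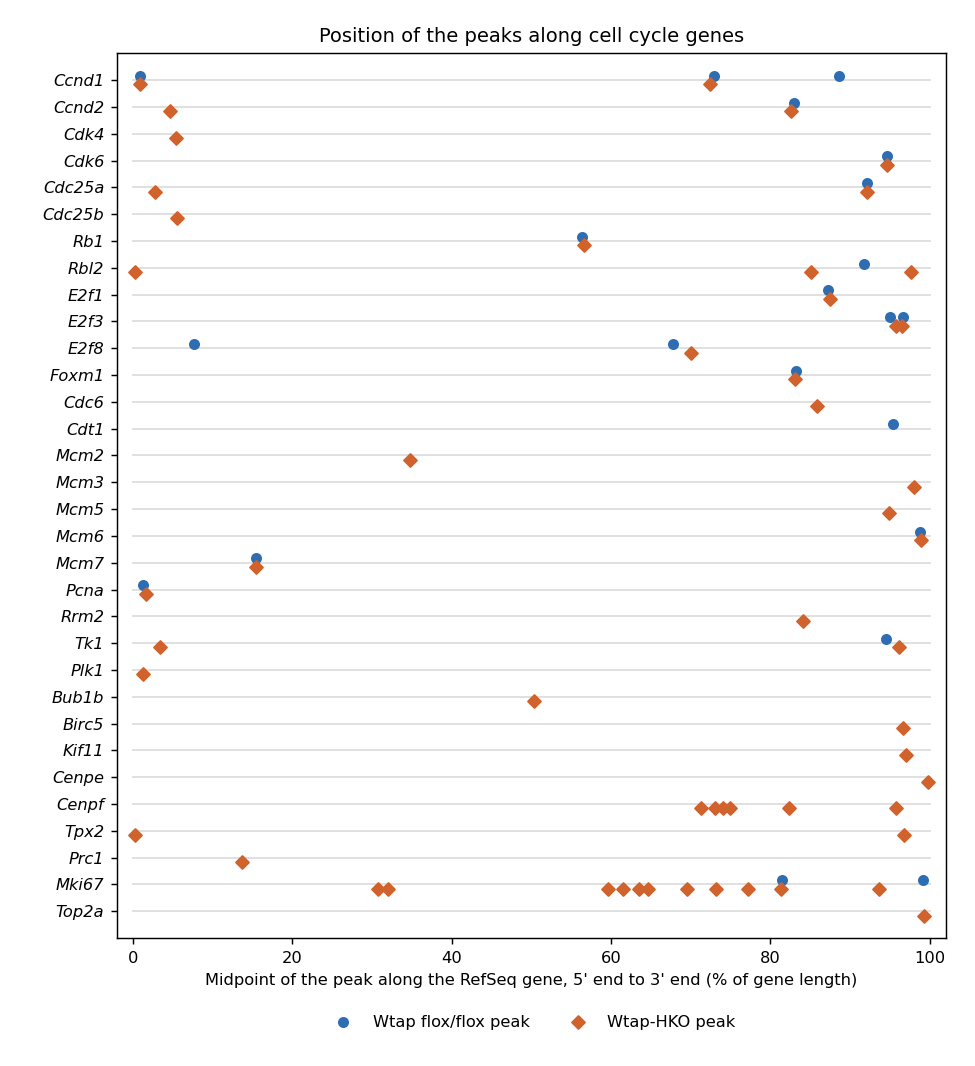
Midpoints of the peaks are drawn along each gene, from the 5′ end (0%) to the 3′ end (100%) of the RefSeq gene span, introns included, with Wtap flox/flox peaks as blue circles and Wtap-HKO peaks as orange diamonds. Mki67 and Cenpf show rows of orange points inside the gene; the 2 Cdk4 peaks of Wtap flox/flox lie beyond the gene and are not drawn.

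Of the 21 peaks of the 15 genes found only in Wtap-HKO, 6 were of Cenpf and 2 of Tpx2, so the 21 are not independent values. Counted by peak, the 21 were ordinary in strength for such genes. Their fold enrichment had a median of 8.43 (quartiles 4.67 and 12.6), against 7.79 (4.16 and 19.9) over the 3303 peaks of all genes with peaks only in Wtap-HKO. The median log10 of the false discovery rate was -7.82 for the 21 peaks, -9.17 for those 3303 and -22.4 for all Wtap-HKO peaks, so the peaks of genes found only in Wtap-HKO had weaker false discovery rates than Wtap-HKO peaks at large. Along the gene span, 8 of the 21 (38.1%) lay in the last 10% and 3 (14.3%) in the first 10%, where 32.3% and 28.6% of the 3303 peaks lay among those that could be placed. For all 54 Wtap-HKO peaks of cell cycle genes, the first 10% of the span held 18.5% and the last 10% held 29.6%. The same parts held 20.9% and 35.4% of all Wtap-HKO peaks, and 13.7% and 41.9% of all Wtap flox/flox peaks. Of all Wtap-HKO peaks, 17.6% touched the first 50 transcribed bases of an annotated start, beside 9.67% of all Wtap flox/flox peaks. Of the cell cycle peaks in Wtap-HKO, 3 of 46 did (6.52%), in Pcna, Prc1 and Rbl2. The remaining cell cycle peaks belong to genes without a listed start and could not be scored. Among them is the 5′ peak of Ccnd1, which spans the 5′ end of its RefSeq gene.

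Where both lists hold a peak at the same site, the cell cycle genes showed no common direction. There were 18 such pairs in 15 genes, in which each peak overlapped only the other. The median log2 ratio of fold enrichment, Wtap-HKO over Wtap flox/flox, was -0.13, beside 0.012 over all 10499 pairs (quartiles -0.59 and 0.66). The ratio was above 0 in 8 pairs and below 0 in 10, and 50.4% of all pairs were above 0. Pcna, the 5′ peak of Ccnd1, Ccnd2 and the 3′ peak of Mki67 lay above the upper quartile of all pairs. The inner peak of Mki67, the larger E2f3 peak and Cdc25a lay below the lower quartile. In number of peaks by gene name, 5 of the 16 genes in both lists had more in Wtap-HKO, 3 had fewer (Ccnd1, Cdk4 and E2f8) and 8 had equal numbers. By position, both control peaks named for Cdk4 fall over Tspan31, so Cdk4 does not belong among the genes with fewer. The same counts over all genes in both lists were not made, and the Wtap-HKO list is the longer one (19185 peaks against 15635).

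**Figure D4:**
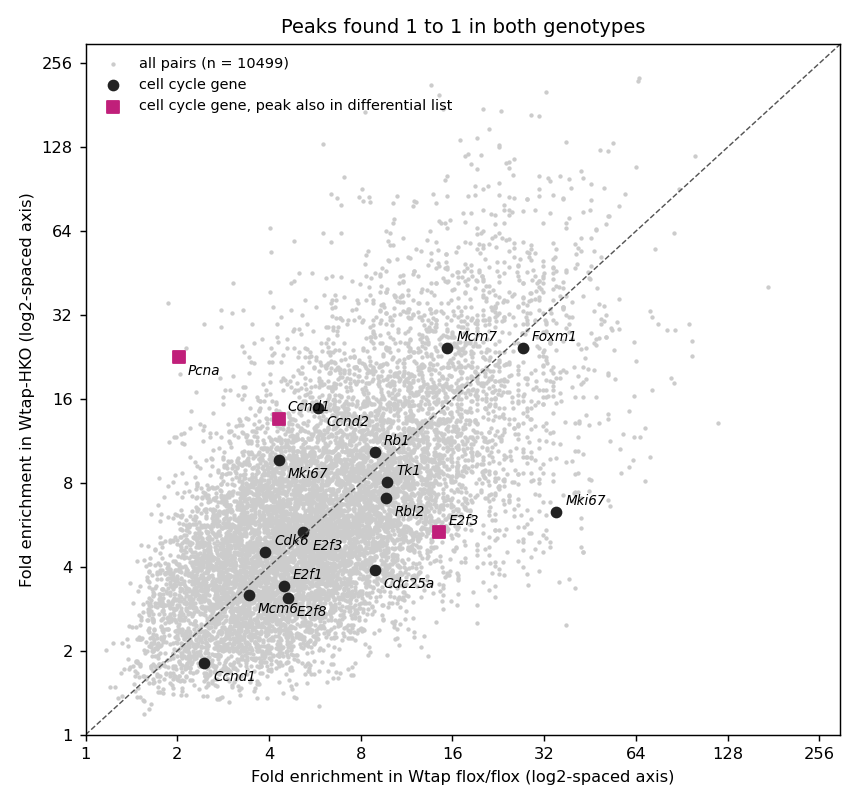
Fold enrichment in Wtap flox/flox (x axis) against Wtap-HKO (y axis), both log2-spaced, for the 10499 peaks matched 1 to 1 (grey) and the 18 of cell cycle genes (black, or magenta squares where the peak is also in the differential list); the dashed line marks equal values. Pcna stands far above the line, at 2.02 and 22.6, and the inner Mki67 peak far below it, at 35.1 and 6.28.

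The deposited table of differential peaks lists sites whose enrichment differed between the genotypes in the peak caller's own test, which is not repeated here and whose use of the replicates is not stated. Its log2 fold change is Wtap-HKO over Wtap flox/flox. It holds 6 peaks of 5 cell cycle genes. A peak lower in Wtap-HKO was held by 3 of the 32 genes (9.38%), beside 16.8% of all genes with a peak, and a higher one by 3 (9.38%), beside 12.6%. The cell cycle genes were thus no more frequent in the table than genes at large. The higher peaks were all at 5′ ends. They were those of Pcna (chr2:132252984-132253284, log2 fold change 1.35), of Ccnd1 (chr7:144939565-144939925, 1.06) and of Cdk4 (chr10:127063564-127063910, 1.34). The Cdk4 peak lies over the Cdk4 stretch printed above. Over the whole lists, 17.6% of Wtap-HKO peaks and 9.67% of Wtap flox/flox peaks touched an annotated start, where a start was listed. The paper, too, reports Wtap-HKO peaks spread over the 5′-UTR as well as the stop codon. The share of 5′ ends among all higher differential peaks was not counted. Whether these genes differ from that shift at large was not tested.

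The lower peaks belonged to E2f8, E2f3 and Cdk4. The E2f8 peak (chr7:48880722-48881446), which also lies over the lncRNA gene Gm2788, had a log2 fold change of -2.29. The E2f3 peak (chr13:29909754-29911261) had a log2 fold change of -1.13. The lower peak named for Cdk4 (chr10:127067324-127067831) had a log2 fold change of -0.67 and is the one that lies over Tspan31. It was also barely enriched, with a fold enrichment of 1.27.

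None of the 15 genes with peaks only in Wtap-HKO was in the table (0 of 15), while 5 of the 16 genes with peaks in both lists were. The same held in lesser degree for all genes: 271 of the 2538 genes with peaks only in Wtap-HKO (10.7%) and 2723 of the 8096 genes with peaks in both (33.6%) had a differential peak. Hence for Plk1, Cenpf, Cdc6 and the other 12, the lists show a call in 1 genotype and not in the other, and no difference in enrichment between the genotypes was shown.

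The other genes that steer the cell cycle, in 5 lists with 40 genes, were near the background. Of these, 26 had a peak, 17 in both lists (65.4%, beside 70.0% of all genes), 6 only in Wtap-HKO (23.1%, beside 22.0%) and 3 only in Wtap flox/flox. Among the 7 CDK inhibitors, Cdkn1a (p21, fold enrichment 18.5), Cdkn1c (6.9) and Cdkn2d (3.57) had peaks only in Wtap-HKO, Cdkn1b and Cdkn2c had peaks in both, and Cdkn2a and Cdkn2b had none. All 9 genes chosen here for the anaphase-promoting complex, which is also active in resting cells, had peaks in both lists. Anapc1, its largest subunit, had a peak higher in Wtap-HKO (log2 fold change 1.01). Of the 6 checkpoint kinases, Atm had peaks in both lists, and Wee1, which restrains CDK1, had a peak only in Wtap flox/flox (fold enrichment 6.98) that the table of differential peaks gives as lower in Wtap-HKO (log2 fold change -1.32). Of the 9 other E2F, DP and MuvB genes, 3 had peaks in both lists, 1 only in Wtap-HKO (E2f4, 3.52) and 2 only in Wtap flox/flox (Tfdp1, 2.38, and Tfdp2, 7.25). Of the 9 genes of origin recognition and firing, Orc2 and Mcm10 had peaks in both lists, Orc3 (9.49) and Orc6 (22.6) only in Wtap-HKO, and 5 had none.

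Of the markers of liver cells other than hepatocytes, 21 had a peak, 13 in both lists and 8 only in Wtap-HKO (38.1%, beside 22.0% of all genes), with 21 control and 38 Wtap-HKO peaks, while all genes together had 15635 and 19185. These lists differed among themselves. Of the 8 hepatocyte markers, 6 had a peak, 4 in both lists (Alb, Apoa1, Apob and Hnf4a), Ttr only in Wtap-HKO and Cyp2e1 only in Wtap flox/flox, with 14 control and 16 Wtap-HKO peaks, and Cps1 and Serpina1a had none. A differential peak lower in Wtap-HKO was listed for 4 of the hepatocyte markers and a higher one for 3, beside 16.8% and 12.6% of all genes with a peak. Among the markers of the other cells, a higher one was listed for 2 Kupffer cell and leukocyte genes and 1 stellate cell and fibroblast gene, and a lower one for none. Of the 10 Kupffer cell and leukocyte markers, 7 had a peak, 3 in both lists and 4 only in Wtap-HKO (Cd68, Ptprc, Timd4 and Lyz2), with 6 control and 13 Wtap-HKO peaks, and Adgre1, Itgam and Cd3e had none. Of the 8 stellate cell and fibroblast markers, 6 had a peak, 3 in both lists and 3 only in Wtap-HKO (Col1a1, Col3a1 and Dcn), with 6 and 9 peaks. Of the 6 endothelial markers, 5 had peaks in both lists, with 7 and 11 peaks, and of the 5 cholangiocyte markers 2 had peaks in both lists and 1 only in Wtap-HKO, with 2 and 5 peaks. The part of these cells, of the abundance of each mRNA and of the depth of the libraries in the peaks of the cell cycle genes was not tested. In whole liver, more cells of a type and more RNA per cell cannot be told apart.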

How the data were processed

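Fragmented poly(A)+ RNA of mouse liver was sequenced by the authors as 8 libraries. Per the labels and the methods of the study, reads were trimmed with fastp 0.19.11, aligned to GRCm38 with BWA mem 0.7.12, and peaks were called with exomePeak; HOMER 4.9.1 is also named. For each peak the authors deposited a fold enrichment, the ratio between IP and input on a linear scale, whose library scaling is not given in the sources used here. The log10 false discovery rates are scores the authors deposited from the peak caller. The log2 fold change of differential peaks, at a p-value under 0.01, was deposited by the authors and is given for genes of the cell cycle lists only; its p-values are not printed. How replicates were combined and whether counting used strand are not given in the sources used here.

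Peaks were assigned by the gene name in the lists, where 1093 control and 1344 Wtap-HKO peaks carry no gene symbol. Peaks were called overlapping when at least 1 exonic base was shared on the same strand, and positions were set on RefSeq gene spans of GRCm38.p6, which list all 54 genes. Counts used pandas 2.3.3 under Python 3.11.15, and figures used matplotlib 3.10.9. The overlap step was tested on simulated data. The 54 genes and the other gene lists were chosen with earlier results of these data known. Every one of the 54 genes is accounted for, every gene with a peak in 1 list or with a differential peak is named, and the remaining genes with peaks are given in order of role. Exon models, motifs under peaks, reads and replicate tests were not used here.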

Additional observations from a re-analysis of the deposited data

How the results depend on the processing

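The genes with peaks only in Wtap-HKO numbered 14 to 16 under every alternative for that count. A fold enrichment of at least 2 gave 16, with Cdk4 added (background 23.2%), a false discovery rate under 0.00001 gave 14 of 31 genes, without Prc1 (background 21.9%), and matching by position gave 16, with Cdk4 added. Genes with peaks in both lists then numbered 15. Under the stricter false discovery rate, the genes with peaks only in Wtap flox/flox became 2, as E2f8 lost its Wtap-HKO peak and joined Cdt1, since fewer peaks enter. Wtap-HKO peaks without a control counterpart were 36 by whole spans and 39 when 50% of the exonic bases had to overlap. The median log2 ratio of the matched peaks ranged from -0.28 to -0.13. An absolute log2 fold change over 1, or a false discovery rate of the difference under 0.00001, left 3 genes with a higher and 2 with a lower differential peak. The lower peaks left were those of E2f8 and E2f3 by fold change. By false discovery rate they were those of E2f8 and of Cdk4, the latter over Tspan31. No paired analysis was possible because the lists combine the replicates, and for the same reason no replicate could be left out. The depth of the libraries is unknown, so no smallest detectable enrichment can be given for the 22 genes without a peak.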
